A study of Mus musculus with 6 samples.

Results

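Histone H3 lysine 9 (H3K9) methylation is removed by erasers, added by writers and bound by readers, and the 31 genes described here encode such proteins outside the KDM7 family, to which Phf2 belongs. They were taken from the count table by gene symbol from a list of 31 names. All 31 were among its 24503 symbols, and 30 of them passed the low-count filter that left 13683 genes for testing. RNA was sequenced from primary neural stem cells of the cortex of E13.5 mouse embryos, enriched as neurospheres and then expanded on laminin with fibroblast and epidermal growth factors. The KO group held 3 libraries carrying the transgene B6.Cg-Tg(Nes-cre)1Kln/J, which expresses Cre from Nestin regulatory elements, and floxed Phf2 on both alleles. The WT group held 3 libraries with floxed Phf2 on both alleles and no Cre named. Both groups therefore share the floxed alleles, and no library carried Cre alone, so deletion of Phf2 and presence of Cre cannot be told apart. The labels do not say whether libraries of a group came from separate embryos or cultures, so all p-values measure the spread between these libraries, which may be technical.

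H3K9 mono- and dimethylation is laid down mainly by the paired enzymes encoded by Ehmt2 (G9a) and Ehmt1 (GLP), and trimethylation by the SUV39H enzymes at pericentromeric repeats and by SETDB1 at retroelements and many silenced genes. Demethylases of the KDM3 and KDM4 families reverse these marks. HP1 and other chromodomain proteins bind them and hold the chromatin in a compact state, which in the embryonic brain helps keep genes of other lineages and retroelements silent. PHF2, the protein targeted in these cells, is itself a Jumonji-domain protein reported to remove H3K9 dimethylation.

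Library totals ranged from 33413444 to 46890314 counts, and the 31 genes took 0.382% to 0.452% of them. Phf2 had 2315, 2041 and 1640 counts in KO libraries 1 to 3, against 4996, 3647 and 3670 counts in WT libraries 1 to 3, over the whole gene rather than the floxed part. Its log2 fold change was -0.85 (SE 0.150, edgeR quasi-likelihood adjusted p = 0.182), and -0.84 (SE 0.0743, adjusted p = 1.23e-04) once replicate number was a blocking factor. The summed neural stem cell markers (10 genes, Nes, Sox2 and Vim among them) reached 9642 to 11210 CPM (counts scaled by library size) in KO libraries and 9696 to 11350 CPM in WT libraries, whereas all 6 microglia and blood markers were under 1 CPM in every library. Vim alone had 4070 to 5116 CPM, and the sum hides large differences in single markers. Hes5 had 23.4 CPM in KO 1 and 18.3 CPM in WT 1, against 232 to 312 CPM in the other libraries. Nes had 1748 CPM in KO 1 and 1738 CPM in WT 1, against 687 to 807 CPM in the other libraries. Astrocyte markers summed to 44.9 to 135 CPM in KO libraries and to 118 to 385 CPM in WT libraries. With the block, 1 neural stem cell marker was called lower in KO (Prom1, log2 fold change -1.35, adjusted p = 2.04e-04) and 1 higher (Hes5, 0.32, adjusted p = 0.0161). Other lineage markers called were Syt1 (-0.93), Stmn2 (-1.38), Gfap (-1.12), Aldh1l1 (-1.98), Sox10 (-0.92) and Col1a2 (-1.91), all lower, and Pdgfra (0.56), higher. Stmn2 (0.097 to 1.61 CPM over all libraries) and Col1a2 (0.12 to 0.996 CPM) were near the floor. DESeq2 with the block did not call Stmn2 (adjusted p = 0.150). Without the block edgeR called none of the markers named here as called, with adjusted p-values of 0.0782 to 0.999. The part of these markers in the results was not tested. In bulk RNA, fewer cells of a type and less RNA per cell cannot be told apart. The libraries numbered 1 in both groups stood apart from numbers 2 and 3, and KO 1 and WT 1 deviated together. KO 2 and KO 3 deviated with both WT 2 and WT 3, so pairs 2 and 3 rest on the sample titles. Models without the number and with it as a block were both fitted. Phf2, Wiz and the most abundant gene of each role are given from both. Other genes are given from the blocked model alone, where the median SE of the tested genes of the set was smaller (0.0706 against 0.165). For Suv39h2 the log2 fold change without the block was 0.20 (SE 0.339).

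On a length-scaled level (counts per kilobase of annotated exon, rescaled to the same total in every library), the HP1 gene Cbx3 was the highest of the 31 genes, with 535 ± 51.6 in KO and 539 ± 91.9 in WT libraries (SD, n = 3 each). Trim28, the corepressor that recruits SETDB1 to zinc finger protein targets, followed with mean length-scaled levels of 394 in KO and 378 in WT libraries. The other HP1 gene of high level was Cbx5, at 213 and 196 on the same scale in KO and WT libraries. Ehmt2, at 166 and 156, was the writer with the highest length-scaled level, and Setdb2, at 6.64 and 6.27, the writer with the lowest. At the low end stood Cdyl2, with 3.53 in KO and 4.44 in WT libraries, and Kdm4d, known for its expression in testis, with 1, 5 and 2 counts in KO libraries 1 to 3 against 4, 3 and 5 counts in WT libraries 1 to 3. Kdm4d was the only one of the 31 that did not pass the filter. The levels of neighbours in this order often lie closer than their spread: Ehmt2 (166 ± 5.09 in KO and 156 ± 3.46 in WT libraries) and Kdm1a (163 ± 3.09 and 156 ± 3.95) do not separate.

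**Figure D1:**
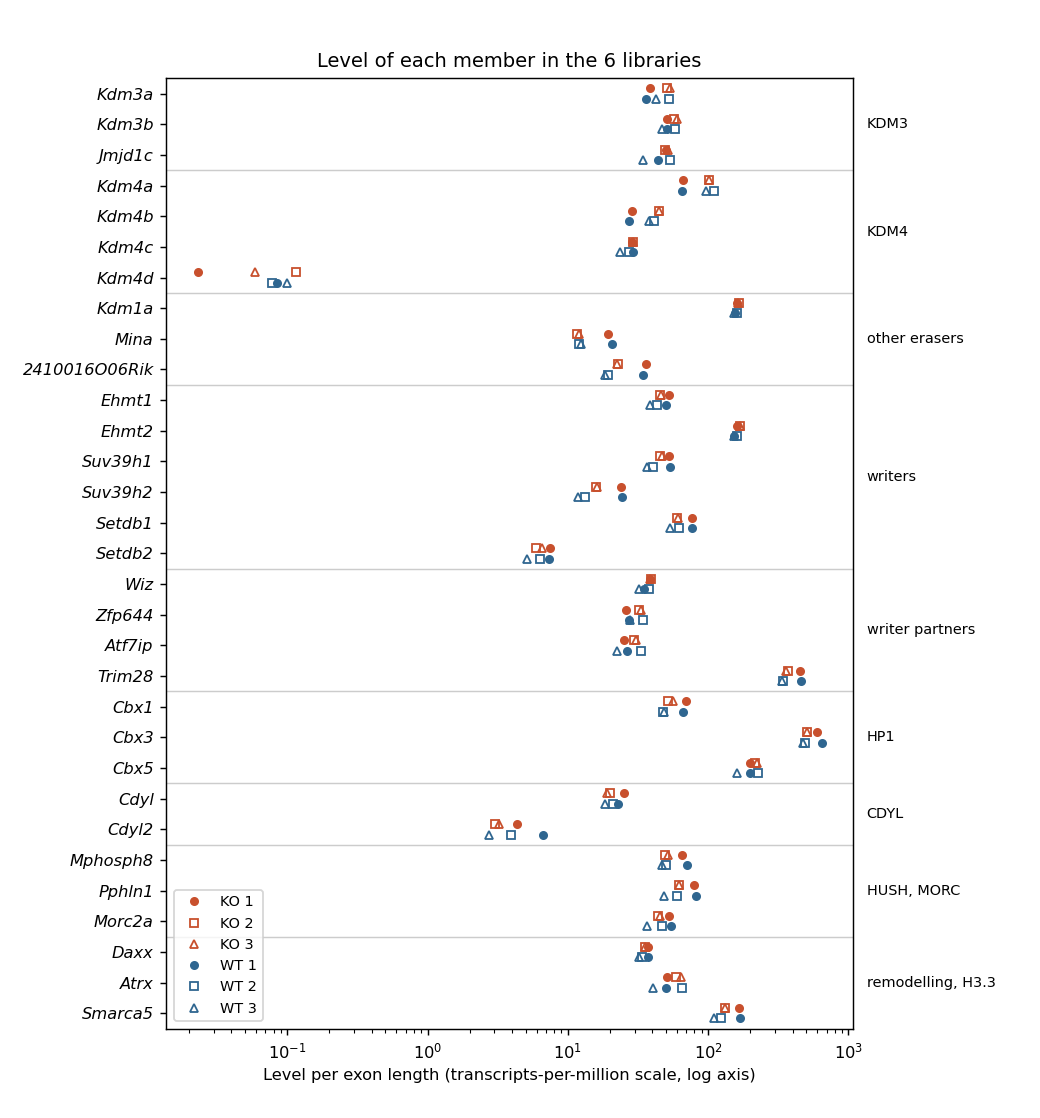
Length-scaled level (horizontal log axis, on a scale like TPM) of the 31 genes in each of the 3 KO libraries (orange, upper row of a gene) and the 3 WT libraries (blue, lower row), grouped by role; circles are number 1, squares number 2 and triangles number 3. Cbx3 is the rightmost gene and Kdm4d the leftmost, and for many genes the circles of both colours lie together, away from the squares and triangles.

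Promoter windows of 250 bases before the RefSeq start (GRCm38.p6) are shown for Suv39h2 and Kdm4a, the genes with the highest and the lowest log2 difference between libraries numbered 1 and the rest among the 30 tested, a split described further on. Capitals mark CpG dinucleotides, and both windows run 5′ to 3′ on the minus strand. The Suv39h2 window (chr2:3474987-3475236) holds 27 CpG and the Kdm4a window (chr4:118180044-118180293) holds 12. The window of 2410016O06Rik, whose difference was level with that of Suv39h2, holds 7 CpG. A link between CpG number and the split was not tested.
Suv39h2: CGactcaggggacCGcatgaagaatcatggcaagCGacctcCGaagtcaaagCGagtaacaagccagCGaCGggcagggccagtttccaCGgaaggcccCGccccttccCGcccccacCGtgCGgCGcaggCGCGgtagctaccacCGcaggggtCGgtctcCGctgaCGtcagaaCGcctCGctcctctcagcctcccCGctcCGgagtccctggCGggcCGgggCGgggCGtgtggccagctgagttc
Kdm4a: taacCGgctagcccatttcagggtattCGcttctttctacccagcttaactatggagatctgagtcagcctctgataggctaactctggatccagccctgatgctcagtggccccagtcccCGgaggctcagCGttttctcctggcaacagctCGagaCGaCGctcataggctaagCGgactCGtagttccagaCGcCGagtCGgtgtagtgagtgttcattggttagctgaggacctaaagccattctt
Windows were found for 28 of the 31 genes, with a median of 18.5 CpG (0 to 46) against a median of 6 over all 32851 windows of that length. A single window was taken for each of the 28, the outermost where RefSeq gave several. The 32851 take in every window of every gene, whether or not it passed the filter. The sets are therefore not matched, which also holds for the motif shares that follow. An E2F-type motif (TTTCCCGC, TTTCGCGC, TTTGCCGC or TTTGGCGC, both strands, free to share bases with the other motif) was found in 1 of the 28, Cbx3, and in 1.86% of all windows. The letters CCAAT, searched on both strands, were found in 14 of the 28 (50%) and in 33.8% of all windows.

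No gene of the 30 tested passed the test between KO and WT with all 6 libraries in the fit; adjusted p-values are edgeR's unless another tool is named. Without the block, 0 of 30 had an adjusted p under 0.05 in edgeR (0.0585% of all tested genes did) and 0 of 30 an unadjusted p under 0.05 (5.81% of all tested genes); the smallest adjusted p was 0.999. With the block, again 0 of 30 were called, against 9.79% of all tested genes, and 8 of 30 had an unadjusted p under 0.05, against 23.7% of all tested genes, a share close to that of the 30. All 8 were higher in KO, as were 10.8% of all tested genes at that p. Those 8 were Kdm4b, Jmjd1c, 2410016O06Rik, Ehmt1, Suv39h1, Suv39h2, Wiz and Cbx1, and the smallest blocked adjusted p, 0.133, belonged to Suv39h2. How many of the 30 reached that unadjusted p depended on the setting. With the block it was 2 under upper-quartile scaling and 10 with DESeq2 size factors, against 3231 and 3315 of all tested genes. With KO 2 and KO 3 summed and number 1 as the block it was 0, against 2368 of all tested genes. DESeq2 also called 0 of 30 in either design, where it called 1.91% of all tested genes without and 9.17% with the block. In numbers 2 and 3 alone edgeR called 0 of 30, against 5.40% of all genes tested there, and 7 of 30 had an unadjusted p under 0.05, as had 2885 of the 13764 genes tested there, a like share. Missing the threshold does not show that the levels were equal; the intervals say how far they could differ. With the block, the 95% interval of the log2 fold change lay within 0.5 of 0 for 29 of 30 genes, which held for 70.9% of all tested genes. The exception was Cdyl2 (-0.64 to 0.12), and the highest upper bound among the 30 was 0.45 for Atrx. Without the block the bounds reached -1.19 (Cdyl2) and 1.02 (Suv39h2), and the median SE was 0.165, against 0.0706 with it.

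The small differences lay mostly above 0. In both fits 27 of 30 log2 fold changes were above 0, compared with 51.3% of all tested genes without and 51.8% with the block, and the exceptions were Kdm4a, Mina and Cdyl2. Without the block the count was 25 with upper-quartile scaling, where Cbx3 and Mphosph8 lay below 0, and 28 with DESeq2 size factors, where Kdm4a lay above it. The median was 0.11 without and 0.12 with the block, a 1.08-fold difference, where the median of all tested genes was 0.0053 and 0.0068. The count of 27 fell to 16 in the fit without the block that left out KO library 1, and was 22 when WT library 3 was left out. Every KO library lay above every WT library for 3 of 30 genes (Kdm1a, Ehmt2 and Wiz), against 4.49% of all tested genes, and below for 0 of 30, against 6.71%. KO exceeded WT in all 3 same-numbered pairs for 17 of 30 genes (22.6% of all tested genes) and was below WT in all 3 for 0 of 30 (23.6%).

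**Figure D2:**
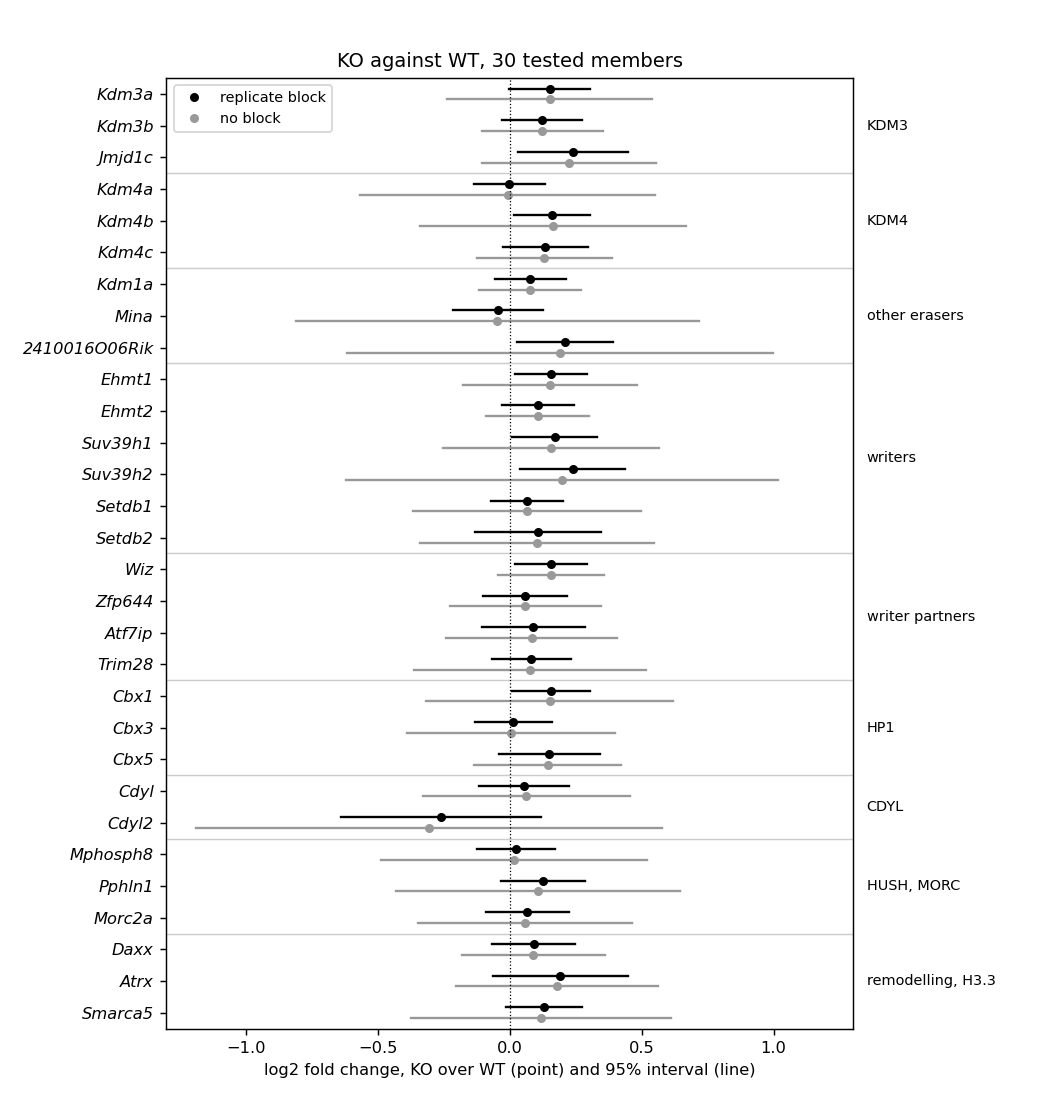
Log2 fold change of KO over WT (horizontal axis) with its 95% interval for the 30 tested genes, grouped by role, with the replicate block (black, upper line) and without it (grey, lower line). The black intervals are the narrower ones, and all but that of Cdyl2 stay within 0.5 of 0.

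Among the erasers, Kdm3b (chr18:34777047-34838660, plus strand), a JmjC enzyme for H3K9 mono- and dimethylation, had the highest mean length-scaled level of its family. However, 24.1% of the 50-base stretches in its annotated transcripts also occur in transcripts of other genes, on either strand. Kdm3b had 138, 151 and 156 CPM in KO libraries 1 to 3, against 135, 144 and 129 CPM in WT libraries 1 to 3. WT library 2 lay inside the KO range, and the other WT libraries below it. Its log2 fold change was 0.12 (SE 0.0950) without the block and 0.12 (SE 0.0680, adjusted p = 0.313) with it. Kdm3a, which removes the same marks, differed by 0.15 with the block. Jmjd1c, the third family member, whose own activity on H3K9 is debated, had 177, 166 and 175 CPM in KO libraries 1 to 3, against 150.3, 169.8 and 122 CPM in WT libraries 1 to 3. The KO libraries of Jmjd1c lay close together while WT library 3 was the lowest of the 6 and WT library 2 lay among them. The blocked log2 fold change was 0.24 (SE 0.0934, adjusted p = 0.151). Leaving out KO 2 and WT 2 from the blocked fit gave 0.38 with an adjusted p of 0.00541, 1 of only 2 such calls among the 30 genes in any fit that was run between KO and WT.

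Kdm4a (chr4:118136957-118180043, minus strand), which demethylates H3K9 and H3K36 trimethylation, was the most abundant KDM4 gene per length. It had 131, 193 and 192 CPM in KO libraries 1 to 3, against 126, 199 and 194 CPM in WT libraries 1 to 3. In both genotypes library 1 was the low one, and the groups overlapped throughout. Its log2 fold change was -0.0076 (SE 0.231) without the block and -0.00074 (SE 0.0600, adjusted p = 0.996) with it, the smallest of the 30 in size in the blocked fit. Kdm4b, an enzyme of the same specificity, had 51.9, 76.5 and 76.3 CPM in KO libraries 1 to 3, against 47.9, 67.0 and 67.8 CPM in WT libraries 1 to 3, with library 1 low in both groups as well. Its blocked log2 fold change was 0.16 (SE 0.0644, adjusted p = 0.162), and that of Kdm4c, its paralog, was 0.14.

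Kdm1a (chr4:136550540-136602723, minus strand) encodes LSD1, a flavin-dependent demethylase best known for H3K4 and reported on H3K9 in some complexes. It had 192, 191 and 188 CPM in KO libraries 1 to 3, against 181, 176 and 185 CPM in WT libraries 1 to 3, so that all KO libraries were above all WT libraries by a small margin. The log2 fold change was 0.077 (SE 0.0800) without the block and 0.078 (SE 0.0603, adjusted p = 0.489) with it. Mina (now Riox2) and 2410016O06Rik (now Riox1) encode JmjC oxygenases that hydroxylate ribosomal proteins and have also been described as histone demethylases. Mina had 35.2, 20.2 and 20.9 CPM in KO libraries 1 to 3, against 36.4, 19.9 and 22.5 CPM in WT libraries 1 to 3. For 2410016O06Rik the libraries gave 33.4, 20.2 and 19.5 CPM in KO libraries 1 to 3, against 30.9, 16.2 and 16.9 CPM in WT libraries 1 to 3. Library 1 was the highest of its group for both genes, whatever the genotype. Their blocked log2 fold changes were -0.044 and 0.21 (SE 0.0811, adjusted p = 0.145). Of their exonic bases, 1185 of Mina overlap the opposite-strand gene Crybg3 and 744 of 2410016O06Rik overlap Gm26571, and with the strand setting not given, reads of these pairs cannot be told apart.

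Among the writers, Ehmt2 (chr17:34898469-34914052, plus strand) had 259, 264 and 258 CPM in KO libraries 1 to 3, against 241, 235 and 249 CPM in WT libraries 1 to 3. The KO libraries all lay above the WT libraries, and KO 3 and WT 3 were the closest of them. KO over WT, Ehmt2 had a log2 fold change of 0.11 (SE 0.0811) without the block and 0.11 (SE 0.0617, adjusted p = 0.331) with it. Its partner Ehmt1 differed by 0.16 (SE 0.0618, adjusted p = 0.154) with the block. Suv39h2, a trimethylase of pericentromeric repeats, had 40.8, 25.8 and 26.0 CPM in KO libraries 1 to 3, against 40.3, 20.4 and 20.0 CPM in WT libraries 1 to 3. In pair 1 the levels were nearly the same, while KO libraries 2 and 3 lay above WT libraries 2 and 3. The pairwise log2 ratios of KO over WT were 0.017, 0.34 and 0.37 for Suv39h2 and 0.0034, 0.25 and 0.26 for its paralog Suv39h1 in pairs 1 to 3. For both genes the KO excess lay in pairs 2 and 3. Blocked log2 fold changes were 0.24 (SE 0.0895, adjusted p = 0.133) and 0.17 (SE 0.0724, adjusted p = 0.184). A test of whether the KO difference in number 1 departed from that in numbers 2 and 3, chosen after the values were seen, gave -0.34 for Suv39h2 (edgeR unadjusted p = 0.0422, adjusted p = 1.00) and called 0 of 30 genes (1 at an unadjusted p under 0.05) and 0 of 13683 (472 at an unadjusted p under 0.05). With 1 library of each genotype in number 1, a miss in that test does not show that the pairs were alike. Setdb1, whose enzyme trimethylates H3K9 at retroelements, and Setdb2, a related SET-domain gene, differed by 0.066 and 0.11 with the block. Exons of Suv39h1 overlap the opposite-strand Gm14820 over 551 bases, and those of Suv39h2 overlap Dclre1c over 357 bases.

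Of the writers' partners, Trim28 (chr7:12999114-13031035, plus strand) had 581, 453 and 432 CPM in KO libraries 1 to 3, against 565, 397 and 428 CPM in WT libraries 1 to 3. Library 1 was the highest in both groups, and the groups overlapped. For Trim28 the log2 fold change was 0.077 (SE 0.182) without the block and 0.082 (SE 0.0671, adjusted p = 0.514) with it. Wiz, a zinc finger protein that tethers the G9a and GLP complex, had 109.6, 106 and 103 CPM in KO libraries 1 to 3, against 96.7, 97.5 and 91.6 CPM in WT libraries 1 to 3, with no overlap between the groups. Its blocked log2 fold change was 0.16 (SE 0.0614, adjusted p = 0.152), and without the block it was 0.16 (SE 0.0839); 2040 of its exonic bases overlap the opposite-strand Gm26858. Zfp644, another G9a and GLP partner, and Atf7ip, which stabilises SETDB1, differed by 0.058 and 0.09 with the block.

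**Figure D3:**
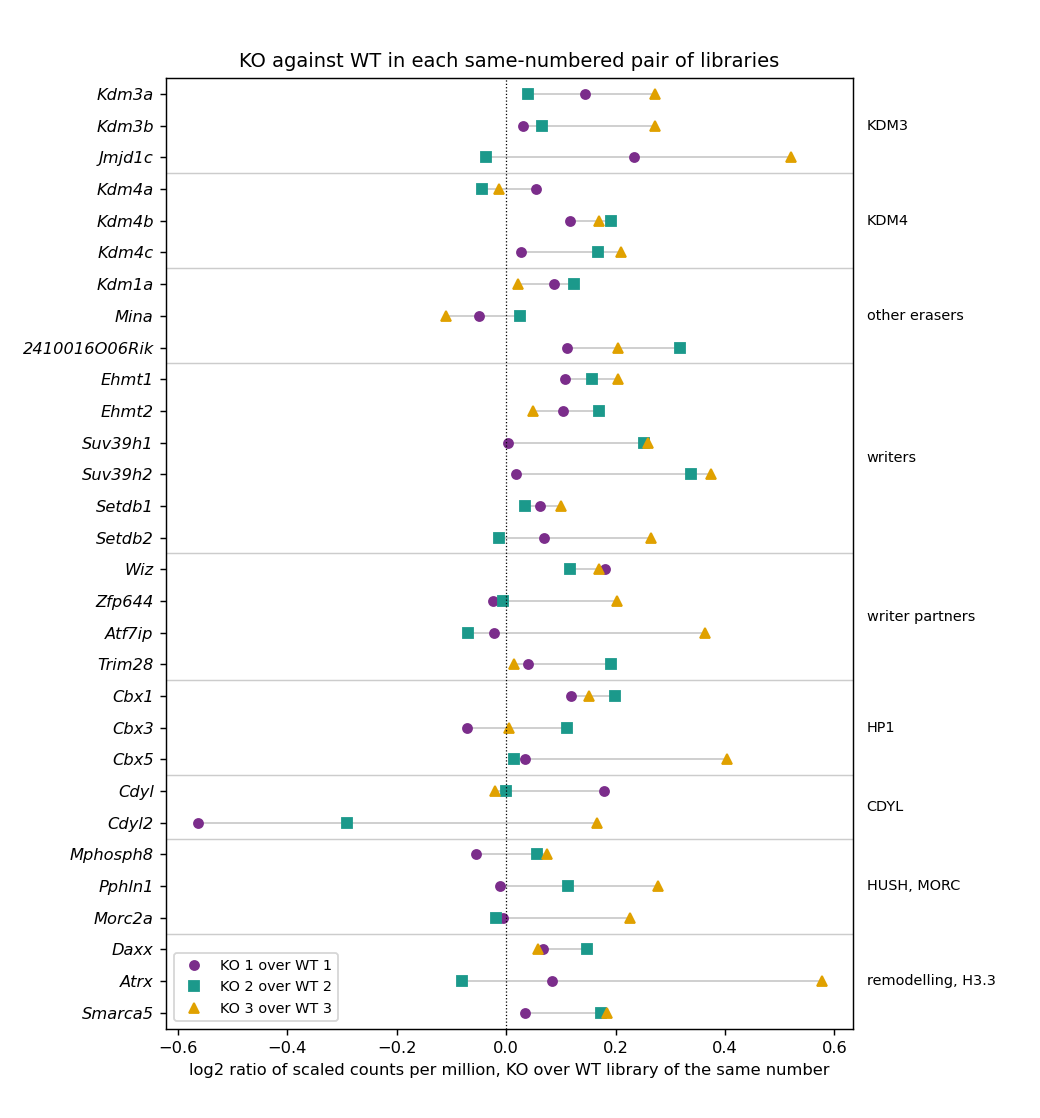
Log2 ratio of CPM, KO over the WT library of the same number (horizontal axis, pseudocount 0.1 CPM), for the 30 tested genes grouped by role, with pair 1 as purple circles, pair 2 as green squares and pair 3 as yellow triangles. Most points lie right of 0, and the triangles of Jmjd1c, Cbx5, Atf7ip and Atrx stand far to the right of their other points.

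Among the readers, Cbx3 (chr6:51470360-51483704, plus strand), encoding HP1 gamma, had 458, 372 and 370.5 CPM in KO libraries 1 to 3, against 481, 345 and 369 CPM in WT libraries 1 to 3. The groups overlapped, and WT library 1 was the highest of the 6. Its log2 fold change was 0.0064 (SE 0.163) without the block and 0.014 (SE 0.0660, adjusted p = 0.924) with it. Of the 50-base stretches in its annotated transcripts, 8.67% also occur elsewhere on either strand, processed pseudogenes of Cbx3 among the places, so its counts are less certain. Cbx1 (HP1 beta) and Cbx5 (HP1 alpha) differed by 0.16 and 0.15 with the block. Cdyl (chr13:35659833-35874063, plus strand), a chromodomain corepressor, had 39.9, 30.5 and 28.8 CPM in KO libraries 1 to 3, against 35.2, 30.5 and 29.2 CPM in WT libraries 1 to 3. Its KO and WT values were nearly equal in pairs 2 and 3, and its log2 fold change was 0.064 (SE 0.162) without the block and 0.054 (SE 0.0767, adjusted p = 0.727) with it. Its paralog Cdyl2, at a few CPM, had 4.09, 2.76 and 2.91 CPM in KO libraries 1 to 3, against 6.09, 3.40 and 2.59 CPM in WT libraries 1 to 3. The groups overlapped, its SE was the largest of the 30 in both fits, and the blocked log2 fold change was -0.26 (SE 0.170, adjusted p = 0.401).

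Pphln1 (chr15:93398350-93491510, plus strand) encodes periphilin, a subunit of the HUSH complex that silences retroelements with H3K9 trimethylation. It had 121, 90.6 and 89.8 CPM in KO libraries 1 to 3, against 122, 83.7 and 74.0 CPM in WT libraries 1 to 3, with library 1 the highest in both groups. Pphln1 differed on the log2 scale by 0.11 (SE 0.223) without the block and 0.13 (SE 0.0717, adjusted p = 0.327) with it. Mphosph8, the chromodomain subunit of HUSH, and Morc2a, an ATPase that HUSH recruits, differed by 0.024 and 0.067 with the block. Smarca5 (chr8:80698507-80739497, minus strand), the ATPase of ISWI remodellers, had 402, 302 and 299.8 CPM in KO libraries 1 to 3, against 392, 268 and 264 CPM in WT libraries 1 to 3. Again library 1 was the high one in both groups, and the groups overlapped. On the log2 scale Smarca5 differed by 0.12 (SE 0.204) without the block and 0.13 (SE 0.0643, adjusted p = 0.254) with it. Of the 50-base stretches in its annotated transcripts, 28.2% also occur elsewhere on either strand, a pseudogene included. Atrx, a remodeller that deposits a variant of histone H3 at heterochromatin together with the chaperone encoded by Daxx, had 256, 281 and 302 CPM in KO libraries 1 to 3, against 241, 297 and 203 CPM in WT libraries 1 to 3. WT library 3 was the lowest of the 6, and the blocked log2 fold change was 0.19 (SE 0.112, adjusted p = 0.345). Without KO 2 and WT 2 in the blocked fit it was 0.33 with an adjusted p of 0.0192. Daxx differed by 0.091 with the block.

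Most of these genes differed by replicate number. Libraries numbered 1 were compared with numbers 2 and 3 with genotype in the model. The split was chosen because the libraries numbered 1 were known to stand apart in these same counts, so its calls describe those libraries, and the labels do not say what the number stands for. In that comparison 21 of 30 genes were called, where 57.6% of all tested genes were, 17 higher (28.2% of all tested genes) and 4 lower (29.4%). The genes called thus made up a share not far from that of all tested genes, while higher calls outnumbered lower ones in the set and not over all tested genes. The median log2 difference of the 30 was 0.31, against -0.015 over all tested genes. Suv39h2 rose by 0.83 (SE 0.0849, adjusted p = 6.12e-05) in number 1, 2410016O06Rik by 0.83 (SE 0.0727, adjusted p = 2.81e-05), Cdyl2 by 0.80 (SE 0.167, adjusted p = 0.00343) and Mina by 0.78 (SE 0.0749, adjusted p = 4.51e-05). The libraries of both genotypes took part, as the values above show: Suv39h2 had 40.8 CPM in KO 1 and 40.3 CPM in WT 1, and 20.0 to 26.0 CPM in the other 4 libraries. Without WT 1 in the fit, Setdb2, Zfp644, Cdyl2, Morc2a and Daxx were no longer called (adjusted p 0.0508 to 0.189), and without KO 1, Setdb2, Zfp644, Cdyl and Daxx (0.0743 to 0.320). Zfp644 was also lost without WT 2 (0.102), and Zfp644 and Daxx without KO 2 or KO 3 (0.0875 to 0.131). Without WT 3, Kdm3b, Atf7ip and Atrx were called as well, all lower, with adjusted p-values of 0.00713, 4.90e-04 and 5.16e-04.

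By role, 5 of 6 methyltransferase genes were higher in number 1, where 28.2% of all tested genes were called higher and 29.4% lower. The exception, Ehmt2, differed by -0.0052 (0.0094 with DESeq2 size factors). All 3 genes of the HUSH and MORC group were higher, with log2 differences of 0.53 for Pphln1, 0.50 for Mphosph8 and 0.37 for Morc2a. Smarca5, Trim28, Cbx1 and Cbx3 were higher by 0.49, 0.42, 0.45 and 0.37, and Cdyl and Daxx by 0.33 and 0.17. From the same roles Cbx5 (0.0027), Wiz (0.052), Atf7ip (-0.12) and Atrx (-0.12) were not called. None of the 6 tested KDM3 and KDM4 genes was called higher (28.2% of all tested genes were), and 3 were lower (29.4%). Kdm4a fell by 0.59 (SE 0.0542, adjusted p = 3.38e-05), Kdm4b by 0.52 (SE 0.0585, adjusted p = 9.84e-05) and Kdm3a by 0.36 (SE 0.0663, adjusted p = 0.00157). Zfp644 was the other gene called lower, at -0.20. Of the KDM3 and KDM4 genes, Kdm4c (0.14), Jmjd1c (0.050) and Kdm3b (-0.082) were not called. Promoter windows of the genes higher in number 1 (16 with a window) held a median of 21.5 CpG (2 to 46), those of the lower genes (3 with a window) 12 (6 to 20) and those of the genes not called (9 with a window) 18 (0 to 40), and the ranges overlapped. Of the neural stem cell markers, 7 of 10 were called lower in number 1 and 1 higher, against 29.4% and 28.2% of all tested genes. Called lower were also 3 of 5 astrocyte, 4 of 5 oligodendrocyte and 3 of 8 neuron markers, and 1 neuron marker was higher. The neuron share lay not far from that of all tested genes. The part of these markers in the result was not tested.

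**Figure D4:**
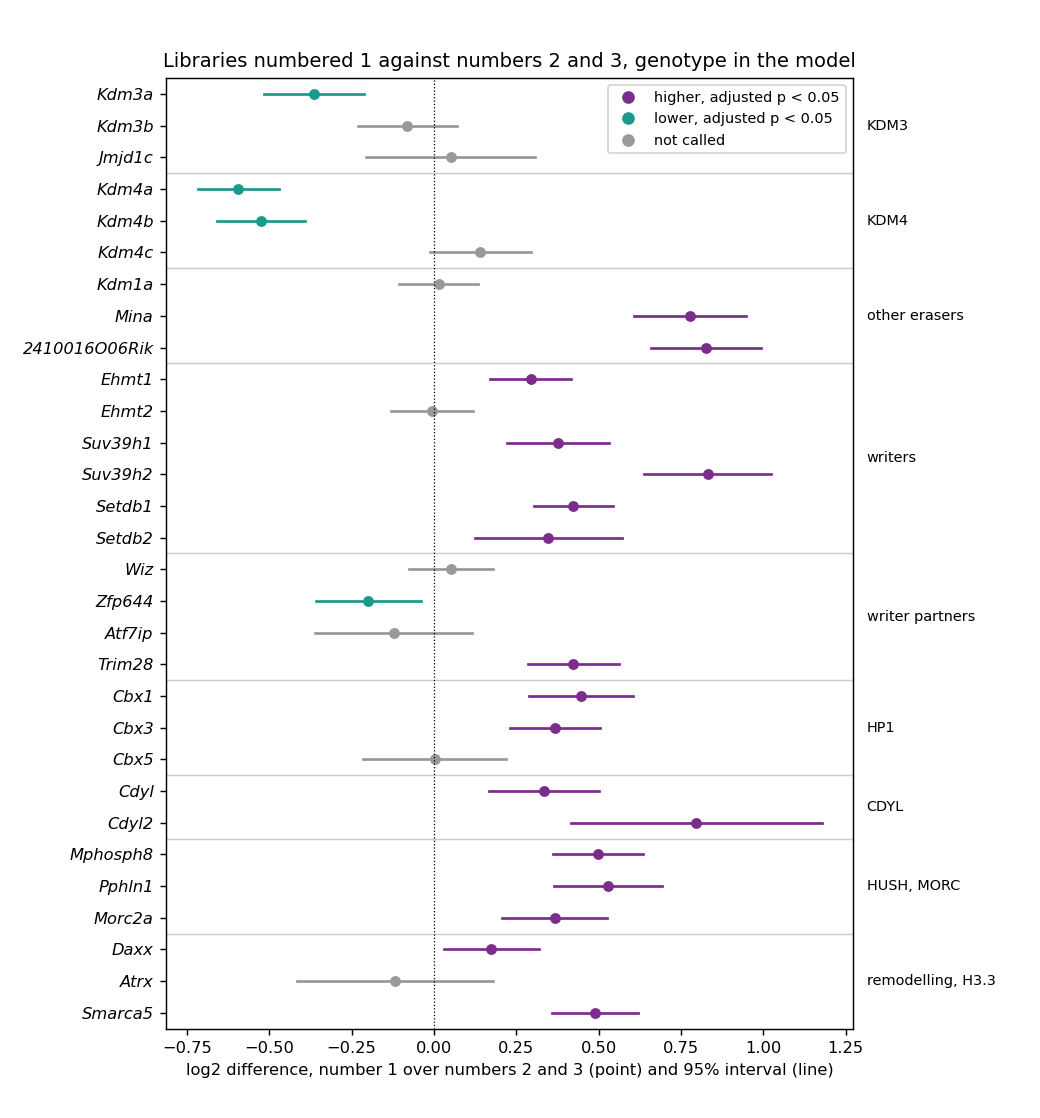
Log2 difference of libraries numbered 1 over numbers 2 and 3, genotype in the model (horizontal axis), with its 95% interval for the 30 tested genes grouped by role; purple is higher and green lower at an adjusted p under 0.05, grey not called. Writers, HUSH and MORC genes lie mostly right of 0, and Kdm3a, Kdm4a, Kdm4b and Zfp644 left of it.

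For comparison, 41 further genes of H3K9 methylation and heterochromatin were listed, of which 39 were tested. The list was drawn up with earlier results of these data known. It includes Phf2 itself, whose lower level is set by the design, so the counts of calls below include the targeted gene. Without the block 0 of 39 were called in edgeR (0.0585% of all tested genes) and 2 in DESeq2 (1.91%), Phf2 and Prdm16. In edgeR 3 had an unadjusted p under 0.05 without the block, against 5.81% of all tested genes, a like share. With the block 9 of 39 were called (9.79% of all tested genes), 7 higher (3.33%) and 2 lower (6.46%). With it 36 of 39 log2 fold changes were above 0, against 51.8% of all tested genes. The lower ones were Phf2 and Prdm16, a PR-domain transcription factor of radial glia. Prdm16 had 1.34, 1.65 and 1.52 CPM in KO libraries 1 to 3, against 3.07, 5.33 and 3.75 CPM in WT libraries 1 to 3, all KO libraries lying below all WT libraries, and fell by 1.41 (SE 0.174, adjusted p = 8.11e-04) on the log2 scale. Cbx2, a Polycomb chromodomain gene, had 36.2, 29.9 and 27.9 CPM in KO libraries 1 to 3, against 28.8, 18.2 and 17.7 CPM in WT libraries 1 to 3, and KO exceeded WT in every pair. Its blocked log2 fold change was 0.56 (SE 0.0921, adjusted p = 0.00413). Uhrf1, which binds H3K9 methylation and hemimethylated DNA, differed by 0.36 (SE 0.0746, adjusted p = 0.0142), Lbr, the lamin B receptor that holds heterochromatin at the nuclear envelope, by 0.32 (SE 0.0742, adjusted p = 0.0233), and Chaf1b, a subunit of the replication-coupled chaperone CAF-1, by 0.32 (SE 0.0782, adjusted p = 0.0306). Those 4 higher genes were also higher in libraries numbered 1, by 0.50 for Cbx2, 0.67 for Uhrf1, 0.80 for Lbr and 0.73 for Chaf1b. Of the other 3 called higher in KO, Incenp was higher in number 1 as well (0.47), Rcor2 was lower (-0.47) and Sirt1 differed by -0.017. With KO libraries 2 and 3 summed and number 1 as the block, 3 of 39 were called (Phf2, Prdm16 and Cbx2), and Chaf1b missed the threshold with the replicate block when KO 2 and WT 2 were left out (adjusted p = 0.217).

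**Figure D5:**
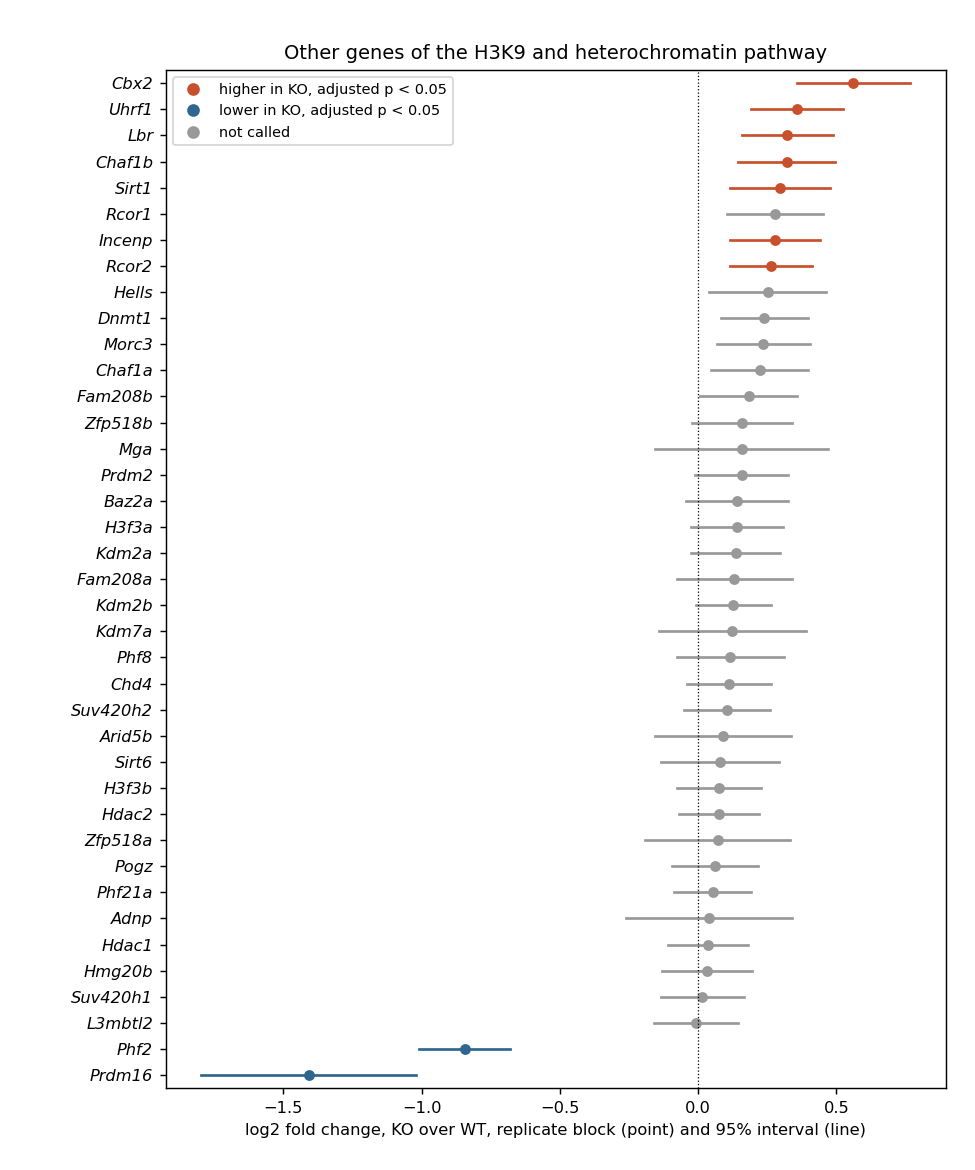
Log2 fold change of KO over WT with the replicate block (horizontal axis) and its 95% interval for the 39 tested genes of the further list, in order of fold change; orange is higher and blue lower in KO at an adjusted p under 0.05, grey not called. Prdm16 and Phf2 stand apart on the left, and Cbx2 is the rightmost.

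Germline genes are a known readout of H3K9 methyltransferase loss. Of 12 listed, 2 passed the filter, Ddx4 and Sycp3, and neither was called in edgeR with or without the block (0 of 2 at an unadjusted p under 0.05) or in DESeq2. Ddx4 had 22, 41 and 35 counts in KO libraries 1 to 3, against 25, 31 and 34 counts in WT libraries 1 to 3. Sycp3 had 18 counts in every KO library, against 25, 24 and 20 counts in WT libraries 1 to 3. The other 10 stayed at 3 counts or fewer in every library, so that a difference in them was not detectable at this depth.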

How the data were processed

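For 6 libraries the authors deposited raw counts, whole numbers per gene symbol. Per the submitters' processing notes, FastQC, cutadapt, Trim Galore, Bowtie2 and RSEM were used with build mm10; versions, annotation, strand setting and the rounding of RSEM estimates were not given in the sources used here. Groups and numbers came from the sample titles. The members and lists were chosen with earlier results of these data known.

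Counts were filtered with filterByExpr, scaled by TMM and tested with edgeR 4.0.16 in R 4.3.3 (robust quasi-likelihood test over all 13683 genes, two-sided, Benjamini-Hochberg adjustment, threshold 0.05), without and with the replicate number as a block. DESeq2 1.42.0 was an alternative. The numbers were treated as pairs by a correlation limit of 0.1. Deviations of same-numbered KO and WT libraries from their group means correlated across genes by 0.854, 0.604 and 0.580. Numbers 2 and 3 correlated by 0.578 and 0.633 across each other, so they are not told apart from one another. With number 1 apart in both groups, deviations from the group mean make numbers 2 and 3 correlate whichever way they are paired. Passing the limit therefore does not bear on pairs 2 and 3. KO 2 and KO 3 differed little (median chi-square 1.02 a gene, 19.5% of genes past the 95% limit, against 5.25 and 55.6% for WT 2 and WT 3) and were also summed as an alternative.

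Positions and exon lengths came from GENCODE M21 on GRCm38, the assembly mm10 names (23978 symbols, 97.9%, and 31 of 31 members matched), and promoter windows from RefSeq. Genes described in full were the most abundant of each role per length, by a written rule that would also have taken any called gene; Jmjd1c, Kdm4b, Mina, 2410016O06Rik, Suv39h1, Suv39h2, Wiz, Cdyl2 and Atrx were added after their values were seen. Up to 6 genes of the further list were named by lowest blocked p; its other calls with the block, and the markers called, were named after their values were seen. CPM are TMM-scaled, and intervals cover the spread between libraries.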

Additional observations from a re-analysis of the deposited data

How the results depend on the processing

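The pairing changed no call between KO and WT among the 30 genes, except that the replicate block without pair 2 called 2 (range 0 to 2). Over all genes, 8 were called without the block, 0 to 21 with 1 library left out (21 without WT 1), 262 by DESeq2 and 0 with KO 2 and KO 3 summed (495 at an unadjusted p under 0.05). With the replicate block 1340 were called, 1255 by DESeq2, 1251 with DESeq2 size factors, 1310 with upper-quartile scaling, 1661 without the filter and 1037, 1248 and 1456 without pair 1, 2 and 3. Number 1 alone as the block gave 1445, numbers 2 and 3 alone 743, and the summed libraries with that block 688. Of the further list the replicate block called 9, and 10 by DESeq2, 9 with DESeq2 size factors, 6 with upper-quartile scaling and 11 without the filter, with 8, 7 and 9 without pair 1, 2 and 3; DESeq2 without the block called 2, number 1 as the block 10, numbers 2 and 3 alone 8 and the summed libraries with that block 3. The number 1 comparison called 16 to 24 of the 30 under its alternatives. Zfp644, Daxx, Setdb2, Cdyl, Cdyl2 and Morc2a were each no longer called under at least 1 of them.

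Small log2 fold changes of KO over WT, none called, crossed 0. Kdm4a was 0.000285 with DESeq2 size factors, 0.000286 in DESeq2, 0.00847 and 0.00844 in the same with the replicate block, 0.000621 with the block and no filter, and 0.00755 with the summed libraries and number 1 as the block. Mina was 0.0835 with the summed libraries, Cdyl -0.00969 in numbers 2 and 3 alone, Cbx3 -0.0214 and Mphosph8 -0.0117 with upper-quartile scaling, and -0.0154 and -0.00529 with that and the block. With the block, leaving out pair 3 gave 0.00439 for Kdm4a, -0.0154 for Zfp644, -0.0467 for Atf7ip, -0.000844 for Mphosph8 and -0.0124 for Morc2a, leaving out pair 2 gave 0.0244 for Kdm4a and -0.0302 for Cbx3, and leaving out pair 1 gave -0.0105 for Cdyl. Without 1 library the log2 fold change ran from -0.104 to 0.572 for 2410016O06Rik, -0.0134 to 0.200 for Atf7ip, -0.00135 to 0.340 for Cbx1, -0.101 to 0.177 for Cbx3, -0.0936 to 0.160 for Cdyl, -0.545 to 0.135 for Cdyl2, -0.180 to 0.155 for Kdm4a, -0.353 to 0.276 for Mina, -0.0586 to 0.224 for Morc2a, -0.145 to 0.239 for Mphosph8, -0.0476 to 0.362 for Pphln1, -0.0885 to 0.234 for Setdb1, -0.00911 to 0.252 for Setdb2, -0.0323 to 0.344 for Smarca5, -0.0565 to 0.625 for Suv39h2, -0.0651 to 0.258 for Trim28 and 0.00676 to 0.143 for Zfp644. In the number 1 comparison, Jmjd1c was -0.00147, Kdm1a -0.0379, Wiz -0.000296 and Cbx5 -0.0494 with upper-quartile scaling, and Ehmt2 0.00939 with DESeq2 size factors and 0.00935 in DESeq2; without 1 library the difference ran from -0.234 to 0.0194 for Atrx, -0.0763 to 0.0875 for Cbx5, -0.0120 to 0.0210 for Ehmt2 and -0.0402 to 0.181 for Jmjd1c. The causes were not tested. Scaling moved the median log2 fold change of all genes by under 0.1. With 3 libraries a group, small differences could go uncalled, and the intervals give the range of differences that the fit allows.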
